A study of Mus musculus with 20 samples.

Results

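The genes described here encode the respiratory chain, the protein complexes of the inner mitochondrial membrane that pass electrons to oxygen and make ATP. Members were chosen by symbol. Nuclear members carry the symbols Nduf with a letter a, b, c, s or v and a number (complex I), Sdh (complex II), Uqcr (complex III), Cox with a digit from 4 to 8 (complex IV) or Atp5 (complex V). The complex was assigned from the symbol alone, so the protein of a member may belong elsewhere, and counts per complex are counts per symbol. The mt- members are protein-coding genes of mitochondrial DNA. Of 103 genes with such a symbol, 84 reached at least 1 CPM (counts scaled to a common library total) in at least 2 of 20 libraries, among 14023 genes of the whole table that did so. The 84 members comprise 77 nuclear genes (36 of complex I, 4 of complex II, 8 of complex III, 13 of complex IV and 16 of complex V) and 7 mt- genes. The other 19 did not reach that level. They are 13 nuclear genes, 6 of them with pseudogene symbols and the rest Cox4i2, Cox6c2, Cox7a1, Cox7b2, Cox8b, Cox8c and Atp5l, and the 6 genes mt-Co2, mt-Co3, mt-Atp6, mt-Atp8, mt-Nd3 and mt-Nd4l.

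RNA was sequenced from mouse embryonic fibroblasts of C57BL/6 background, cells of connective tissue taken from embryos. Every culture lacked c-Rel, a subunit of the inflammatory transcription factor NF-kB. The control genotype, crel-/-, carried no further allele named in the labels, and the other genotype, crel-/- RelA-TA-KI, also carried a knock-in at RelA, the main activating NF-kB subunit. What TA denotes is not given in the sources used here. Cells were grown in 10% serum, kept overnight in 0.5% serum, and left untreated (0 h) or given interleukin 1 beta (IL-1b, 10 ng/ml), bacterial lipopolysaccharide (LPS, 100 ng/ml) or tumour necrosis factor (TNF, 10 ng/ml) for 0.5, 1 or 3 h. Each of the 20 combinations of genotype, agent and time is 1 library, so the 2 genotypes serve as the pair of libraries of a condition. Nothing states separate cultures, so a p-value here reflects the spread among single libraries, which may be technical. Below, knock-in means crel-/- RelA-TA-KI.

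The 20 libraries held 9248151 to 12574135 counts. Rel, the gene for c-Rel, had 16.2 to 62.1 CPM in crel-/- and 16.5 to 34.9 CPM in knock-in libraries; which part of the gene was deleted is not given in the sources used here, so these levels do not check the genotype. All 14 fibroblast markers listed passed the level of 1 CPM, with a summed level of 65374 to 80898 CPM. Of 12 muscle markers 4 passed (sum 10.1 to 33.2 CPM) and Ckm was at 0 in every library. Of 6 fat markers 2 passed (sum 10.5 to 24.4 CPM) and Ucp1 and Adipoq were at 0 throughout. Of 12 neural and Schwann markers 11 passed (sum 32.5 to 129 CPM), and 3 of 6 endothelial and 3 of 6 epithelial markers passed. All 15 macrophage markers listed also passed, with a summed level of 2196 to 5750 CPM. These marker sums are of unscaled counts. In bulk RNA, fewer cells of a type and less RNA per cell cannot be told apart.

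Complex I oxidises NADH and complex II succinate, complex III passes the electrons to cytochrome c, and complex IV hands them to oxygen. Complexes I, III and IV pump protons out of the matrix, and complex V, the ATP synthase, lets them return as it makes ATP. Most subunits are encoded in the nucleus and imported, whereas a few core subunits of complexes I, III, IV and V are read from the circular mitochondrial DNA inside the organelle, so every complex but II needs both genomes.

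Of the 13 protein-coding genes of mitochondrial DNA, 7 carried nearly all counts and 6 carried almost none. In the table, mt-Co2, mt-Co3, mt-Atp6, mt-Atp8 and mt-Nd4l were listed at 0 in every library, and mt-Nd3 had 4 counts in all 20 libraries together. Their neighbours on the same genome had 54932 (mt-Nd6) to 632291 counts (mt-Co1). Most of the genes without counts lie side by side, from mt-Co2 (chrM:7013-7696) through mt-Atp8, mt-Atp6, mt-Co3 and mt-Nd3 to mt-Nd4l (chrM:9877-10173). Positions are on mm10, the build named in the submitters' processing notes. The nuclear genome carries inserted copies of mitochondrial DNA, and every stretch of 50 bases, the read length, was therefore compared with the transcripts of all annotated genes. Of such windows, 100% in mt-Co2, 99.9% in mt-Co3, 99.5% in mt-Atp6, 98.8% in mt-Nd4l and 98.0% in mt-Nd3 also occurred in another gene. The share was 62.2% in mt-Nd4, 51.1% in mt-Co1, 8.19% in mt-Nd2 and 7.61% in mt-Nd5. It was 0% in mt-Nd1, mt-Nd6 and mt-Cytb, but also in mt-Atp8, which has no counts and overlaps mt-Atp6 by position (chrM:7766-7969 against chrM:7927-8607). Copies that lie outside annotated genes would not be found by this comparison.

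**Figure D1:**
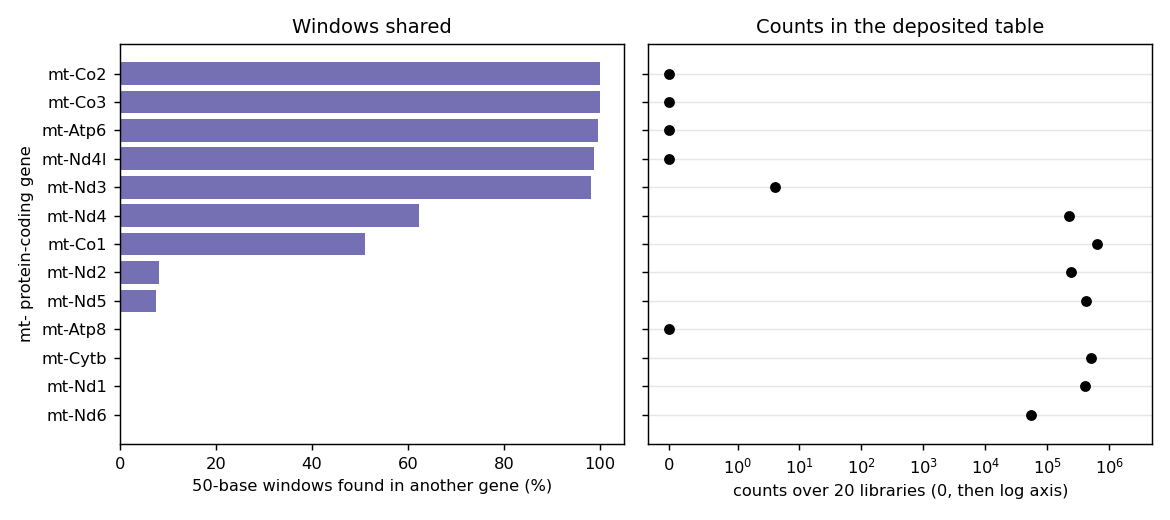
Left, share of 50-base transcript windows (percent) of the 13 mitochondrial protein-coding genes that also occur in another annotated gene; right, their counts summed over 20 libraries (0, then a log axis). The genes with 98.0% or more shared windows have 0 to 4 counts, and mt-Atp8 has 0 counts with 0% shared.

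These 3 windows show the contrast. The sequences are reference sequence of the plus strand of mm10, written 5′ to 3′, with nothing marked by capitals. The windows of mt-Co2 (chrM:7330-7379) and mt-Co3 (chrM:8974-9023) occur letter for letter in Gm28661 and Gm28437 on chromosome 1, and the first also in Gm13341. The window of mt-Nd5 (chrM:12629-12678) occurs in no other annotated gene.
mt-Co2: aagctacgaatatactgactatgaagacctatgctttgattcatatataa
mt-Co3: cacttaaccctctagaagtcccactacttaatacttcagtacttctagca
mt-Nd5: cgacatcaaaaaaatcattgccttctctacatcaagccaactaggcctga
The copies themselves were almost empty: Gm28661 had 2 and Gm28437 1 count over all libraries. How reads with several matches were treated is not given in the sources used here, and its part in the empty genes was not tested. A count of 0 for these 5 genes therefore gives no level of their transcripts, and only 7 mt- genes can be described.

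Per kilobase of exon, the mt- members were the most abundant of all members. Mean levels over 20 libraries were 2126 CPM per kilobase for mt-Cytb (complex III), 1930.4 for mt-Co1, the catalytic subunit of complex IV, and 499 for mt-Nd6, the lowest. Much of mt-Co1 and mt-Nd4, but none of mt-Cytb, is shared with other genes, so the order among mt- members is uncertain. The highest nuclear members were Atp5a1 at 183 CPM per kilobase and Atp5b at 151, the alpha and beta subunits of the catalytic head of ATP synthase, and Cox6b1 at 173. The lowest was Atp5g2 at 0.450.

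Isoforms differed widely in level. The broadly expressed forms Cox4i1, Cox6a1, Cox6b1 and Cox8a lay at 128, 142, 173 and 131 CPM per kilobase. Cox6a2, the form of heart and skeletal muscle, lay at 1.52 and Cox6b2, the form of testis, at 5.70 CPM per kilobase, and Cox4i2, Cox7a1 and Cox8b did not reach 1 CPM in 2 libraries. Of the 3 genes that encode an identical mature subunit c of ATP synthase, Atp5g3 lay at 57.3, Atp5g1 at 0.593 and Atp5g2 at 0.450 CPM per kilobase. Levels of Atp5g1 and Atp5g2 rest on few counts, and 11.1% and 38.3% of their windows occur in other genes. The same holds for Cox7c (22.1%), Ndufs5 (21.7%) and Ndufb4 (18.3%), which lay at 2.46, 2.94 and 2.95 CPM per kilobase.

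The mt- transcripts were higher in every IL-1b and LPS library than in every unstimulated or TNF library, in both genotypes and from 0.5 h on. Together the 7 genes took 1.22 to 1.59% of the counts in the 12 IL-1b and LPS libraries (median 1.31%) and 0.670 to 1.03% in the 8 others (median 0.870%). In crel-/- cells the share was 0.745% at 0 h, 1.27, 1.31 and 1.29% after 0.5, 1 and 3 h of IL-1b, 1.41, 1.54 and 1.25% after LPS, and 0.780, 1.03 and 1.00% after TNF. In knock-in cells it was 0.959% at 0 h, 1.37, 1.29 and 1.31% after IL-1b, 1.59, 1.53 and 1.22% after LPS, and 1.01, 0.670 and 0.721% after TNF. The 2 sets of libraries did not overlap. This split was chosen after the values were seen, and no test was made of it over all libraries. The 77 nuclear members took 0.488 to 0.555% of counts in 18 libraries and 0.403% (crel-/-) and 0.394% (knock-in) after 3 h of LPS.

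**Figure D2:**
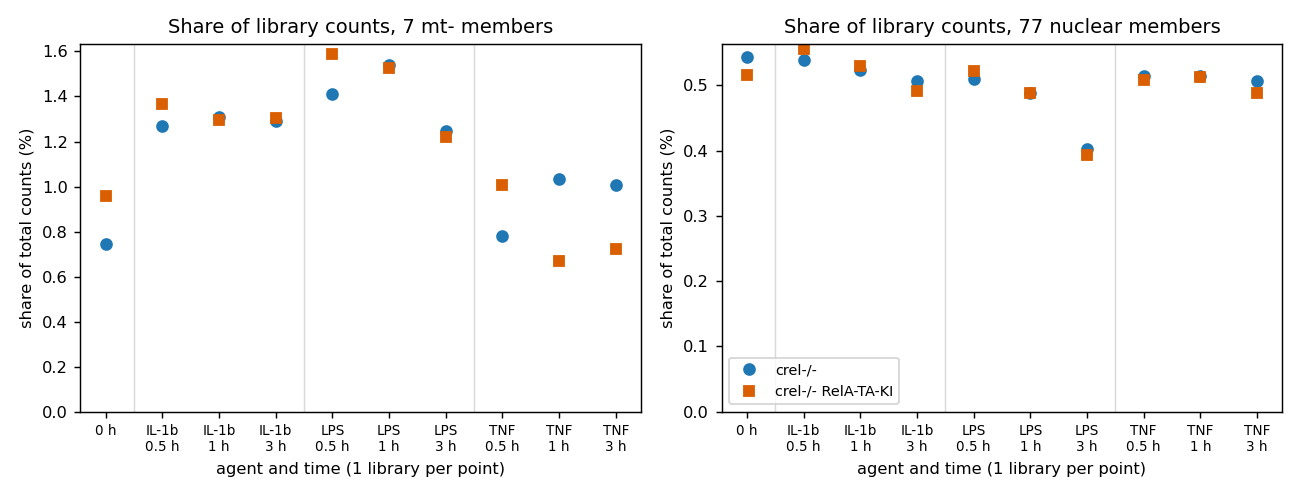
Share of all counts of a library (percent, vertical axis from 0) taken by the 7 mt- members (left) and the 77 nuclear members (right), by agent and time; circles are crel-/- and squares knock-in, 1 library each. The mt- share is 1.22% or more in all IL-1b and LPS libraries and 1.03% or less in the others, and the nuclear share is lowest at LPS 3 h.

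The ratio of nuclear to mt- counts followed the mt- side. Its log2 value lay between -1.66 and -1.23 in the IL-1b and LPS libraries and between -1.004 and -0.39 at 0 h and under TNF. At LPS 3 h against 0 h it differed by -0.96 ± 0.31 (SD, n = 2 genotypes, log2), at IL-1b 3 h by -0.71 ± 0.27 and at TNF 3 h by -0.10 ± 0.61. The TNF difference is smaller than its own spread.

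mt-Co1 (chrM:5328-6872) shows the pattern gene by gene. Its level was 1674 CPM in crel-/- and 2234 CPM in knock-in cells at 0 h. IL-1b libraries held 3233, 3339 and 3374 CPM in crel-/- and 3440, 3434 and 3342 CPM in knock-in cells at 0.5, 1 and 3 h. LPS libraries held 3371, 3685 and 4224 CPM in crel-/- and 3749, 3689 and 4201 CPM in knock-in cells. All 12 of these lay above all others, since TNF libraries held 1760, 2486 and 2497 CPM in crel-/- and 2430, 1651 and 1836 CPM in knock-in cells. mt-Nd1, mt-Nd2, mt-Nd4 and mt-Nd5, core subunits of the membrane arm of complex I, and mt-Cytb, the cytochrome b of complex III, were separated in the same way. mt-Cytb (chrM:14145-15288) ranged from 2502 to 3621 CPM against 1251 to 1989 CPM. mt-Nd6, a complex I subunit and the member encoded on the minus strand (chrM:13552-14070), was the exception, with 226.6 CPM in the knock-in library at IL-1b 0.5 h against 276.8 CPM in the crel-/- library at TNF 1 h. Complete separation of this kind was seen in 6 of 7 mt- and 5 of 77 nuclear members (Cox7c, Cox7b, Uqcr10, Ndufa7 and Ndufb9), and in 1.98% of all genes tested; the opposite order was seen in 0 members and in 1.06% of all genes.

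**Figure D3:**
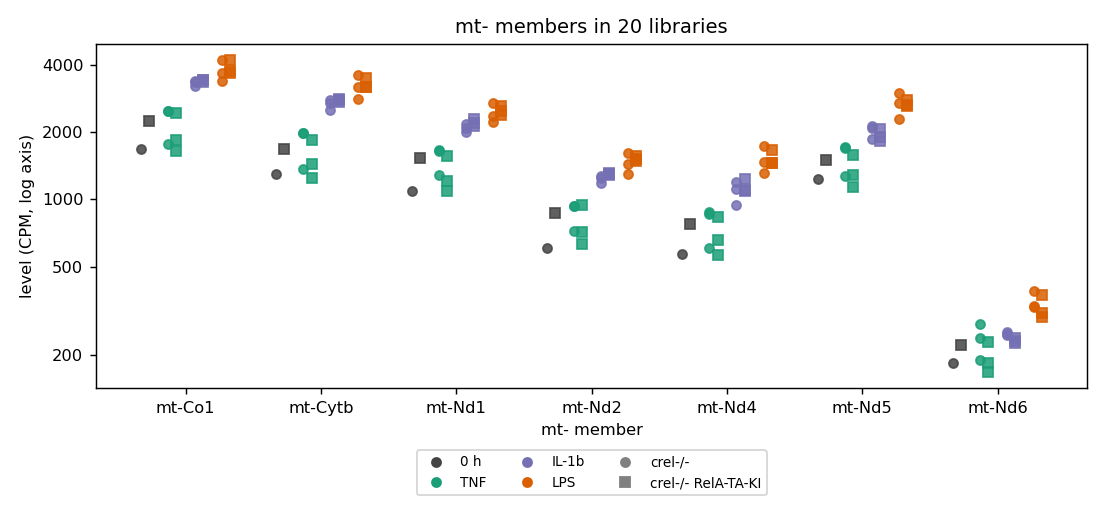
Level of each mt- member in CPM (log axis) in 20 libraries; colour gives the agent, all times together, and the marker shape the genotype. IL-1b and LPS libraries lie above all 0 h and TNF libraries for every gene but mt-Nd6.

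Levels in CPM are scaled by the trimmed mean of M-values (TMM), except the level of 1 CPM used for passing and the summed marker levels. Those and the shares are of unscaled counts. Fold changes were tested with edgeR's quasi-likelihood F test on all 14023 genes, and p-values were adjusted by Benjamini and Hochberg, with calls made under 0.05. At LPS 3 h against 0 h all 7 mt- members rose, as did 29.2% of all genes tested. The log2 fold changes ran from 0.89 ± 0.18 (SE, adjusted p = 0.00144, edgeR) for mt-Nd6 to 1.33 ± 0.23 (adjusted p = 0.000457, edgeR) for mt-Nd4. Between them lay mt-Nd1 (1.02), mt-Nd5 (1.08), mt-Co1 (1.11), mt-Nd2 (1.12) and mt-Cytb (1.25), all higher in both genotypes. At IL-1b 3 h, 6 of 7 rose, where 16.9% of all genes did. mt-Cytb led with 0.91 ± 0.23 (SE, adjusted p = 0.0128, edgeR) and mt-Nd6 did not pass at 0.25 ± 0.18 (adjusted p = 0.321, edgeR). Without the crel-/- library at 0 h or at IL-1b 3 h, 0 of 7 passed for IL-1b, and 2 of 7 without the knock-in library at IL-1b 3 h. For LPS all 7 passed with any 1 library left out, but 4 of 7 without a scaling factor, where mt-Nd1 (0.41, adjusted p = 0.0988, edgeR), mt-Co1 (0.51, adjusted p = 0.0512) and mt-Nd6 (0.29, adjusted p = 0.169) did not. Without a scaling factor 3 of 7 passed for LPS minus TNF.

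At TNF 3 h, 0 of 7 mt- members passed in edgeR, 0 at an unadjusted p under 0.05 and 0 in DESeq2 or limma-voom, with a median log2 change of 0.15, where 18.7% of all genes were called higher and 16% lower. The summed mt- level changed by 0.58 on the log2 scale in crel-/- and by -0.27 in knock-in cells, a difference that was not tested. LPS 3 h minus TNF 3 h was positive and passed for all 7, with a median of 0.94, against 24.3% of all genes called higher and 24% lower. IL-1b 3 h minus TNF 3 h had a median of 0.63 for the 7 and 0 calls in edgeR, where 7.89% of all genes were called higher and 7.93% lower; 6 had an unadjusted p under 0.05, and DESeq2 called 5 and limma-voom 4.

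The difference between agents was present at the earliest time. The comparison used here divides the agents as the split above did, so its calls are no separate support for that split. At 0.5 h, the mean of IL-1b and LPS libraries exceeded the TNF libraries for all 7 mt- members, of which 5 passed in edgeR, with a median log2 difference of 0.68, where 5.24% of all genes were called higher and 5.13% lower. These calls rest on few libraries: they fell to 0 or 1 of 7 when any 1 of the 6 libraries at 0.5 h was left out. Within an agent, later changes were small. From 0.5 to 3 h, mt- members had a median change of 0.24 under LPS, 0.04 under IL-1b and 0.05 under TNF, with 0 calls in edgeR, DESeq2 or limma-voom and 0 at an unadjusted p under 0.05, where 27%, 11.9% and 17.1% of all genes were called higher and 27%, 9.92% and 14.7% lower. These 3 late comparisons were added after the data were seen and use TMM scaling. From 0.5 to 3 h of LPS the unscaled mt- share instead fell, from 1.41 to 1.25% in crel-/- and from 1.59 to 1.22% in knock-in cells.

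Averaged over the 3 agents, which share the 0 h libraries, the mt- median with TMM scaling was 0.58 at 0.5 h, 0.60 at 1 h and 0.68 at 3 h. edgeR called 0, 3 and 7 of the 7 higher, against 2.9%, 7.12% and 25.5% of all genes. At 0.5 h, 6 had an unadjusted p under 0.05, and DESeq2 called 5 and limma-voom 3. Without the crel-/- library at 0 h, 0 of 7 passed at 3 h.

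Some other RNAs also differed between the IL-1b and LPS libraries and the others, in either direction. The 2 mitochondrial ribosomal RNAs took 0.0775 to 0.104% of counts in the IL-1b and LPS libraries and 0.0470 to 0.0715% in the others. The nuclear long noncoding RNAs Malat1, Neat1, Meg3 and Kcnq1ot1, picked from that class, together took 0.120 to 0.223% against 0.0524 to 0.117%. The summed level of 15 macrophage markers was 2196 to 4025 CPM in the IL-1b and LPS libraries and 4586 to 5750 CPM in the others, and that of 12 muscle markers, of which 4 passed the level and Ckm was at 0, was 10.1 to 21.6 against 27.5 to 33.2 CPM. Epithelial markers (3 of 6 passed) summed to 1.68 to 3.75 against 3.79 to 9.98 CPM, whereas sums of fibroblast (65374 to 77434 against 68247 to 80898 CPM), neural and Schwann (11 of 12 passed, 32.5 to 76.7 against 72.5 to 129 CPM), endothelial (3 of 6 passed, 10.9 to 55.1 against 13.5 to 23.9 CPM) and fat markers (2 of 6 passed, 10.5 to 16.8 against 11.6 to 24.4 CPM) overlapped. The marker sums are of unscaled counts. At LPS 3 h the TMM factor was 0.722 and 0.732, lower than in the other libraries. Which sums overlap may thus change with TMM scaling, which was not tested. The part of these other RNAs in the mt- rise was not tested.

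Nuclear members changed little, and their direction at LPS 3 h depends on the scaling of the libraries. With TMM scaling, 40 of 77 rose and 4 fell at LPS 3 h, with a median log2 change of 0.22, where 29.2% of all genes were called higher and 28.3% lower; without a scaling factor 1 rose and 57 fell, with a median of -0.38. After 3 h of LPS the TMM factor was 0.722 and 0.732, against 0.979 to 1.12 in other libraries, and leaving it out moved the median of all genes from -0.01 to -0.62. Relative to that median, nuclear members lay 0.24 higher under either scaling and mt- members 1.12 higher. Values below use TMM scaling and so are relative to the bulk of genes. Without the knock-in library at 0 h, 23 nuclear members were called higher at LPS 3 h, and 26 without the crel-/- library at LPS 3 h.

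**Figure D4:**
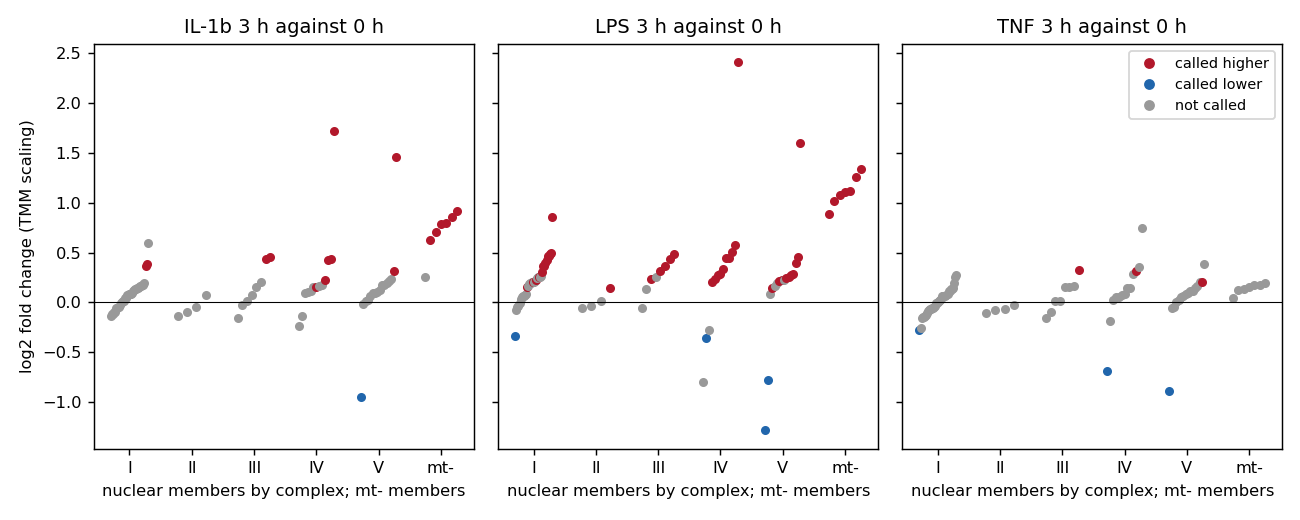
Log2 fold change at 3 h against 0 h (TMM scaling) of the nuclear members of complexes I to V and of the mt- members, 1 point per gene; red was called higher, blue lower and grey neither. At LPS 3 h mt- members lie between 0.89 and 1.33 and the median nuclear member at 0.22, which becomes -0.38 without a scaling factor.

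Counts per complex stand beside the 29.2% of all genes called higher and 28.3% lower at LPS 3 h, and without a scaling factor 1 of all 77 nuclear members rose. In complex I, 14 of 36 nuclear members rose and 1 fell at LPS 3 h, with a median of 0.21. Ndufb4, an accessory subunit of the membrane arm, led with 0.85 ± 0.26 (SE, log2, adjusted p = 0.0132, edgeR). Its level was 3.23 and 2.21 CPM at 0 h and 4.50 and 5.38 CPM at LPS 3 h (crel-/-, then knock-in), so the groups did not overlap. This level rests on 26 to 52 counts per library, and without a scaling factor the change was 0.25 and did not pass (adjusted p = 0.402, edgeR). Ndufv3, an accessory subunit of the NADH-binding module, fell under LPS and TNF, from 48.5 and 47.4 CPM at 0 h to 37.0 and 38.9 CPM at LPS 3 h and 38.5 and 40.5 CPM at TNF 3 h. The log2 changes were -0.34 ± 0.08 (SE, adjusted p = 0.00248, edgeR) and -0.28 ± 0.08 (adjusted p = 0.0139, edgeR). All 4 of these libraries lay below both 0 h libraries. Ndufa2, a small accessory subunit, rose under IL-1b by 0.39 ± 0.10 (SE, adjusted p = 0.0135, edgeR), from 31.5 and 32.2 CPM to 41.9 and 41.3 CPM; without a scaling factor the change was 0.22 and did not pass (adjusted p = 0.0959, edgeR). Ndufs3, a core subunit of the peripheral arm, was higher at LPS 3 h than at TNF 3 h by 0.47 ± 0.11 (SE, adjusted p = 0.00282, edgeR), at 22.8 and 20.7 against 14.9 and 16.4 CPM; without a scaling factor this difference was 0.01.

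Complex II, encoded in the nucleus alone, was nearly flat with TMM scaling. Sdha, the flavoprotein that oxidises succinate, held 216.8 and 219.6 CPM at 0 h, 212.7 and 208.4 CPM at LPS 3 h, 199.0 and 198.2 CPM at IL-1b 3 h and 212.7 and 194.3 CPM at TNF 3 h. Its 20 values spanned a 1.13-fold range, the narrowest of the Sdh genes. Sdhb, the iron-sulfur subunit, changed by 0.01 ± 0.07 (SE, log2) and the membrane anchor Sdhd by -0.04 ± 0.08 at LPS 3 h, and neither passed. The other anchor, Sdhc, rose by 0.15 ± 0.06 (SE, adjusted p = 0.0439, edgeR), from 114.7 and 112.5 CPM to 124.6 and 126.8 CPM, but fell by 0.46 on the log2 scale without a scaling factor (adjusted p = 1.14e-05, edgeR). Leaving out the factor also lowered the median of all genes, as given above, so this shift is not particular to Sdhc.

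In complex III, 5 of 8 members rose and 0 fell at LPS 3 h in edgeR, with a median of 0.29. Uqcrq (chr11:53427922-53430831, minus strand), a small subunit next to cytochrome b, rose under all 3 agents. Its level was 39.1 and 38.5 CPM at 0 h, 51.5 and 54.7 CPM at IL-1b 3 h, 52.7 and 56.3 CPM at LPS 3 h and 47.7 and 49.5 CPM at TNF 3 h. The log2 changes were 0.45 ± 0.08 (SE, adjusted p = 0.000943, edgeR), 0.49 ± 0.08 (adjusted p = 0.000112, edgeR) and 0.32 ± 0.08 (adjusted p = 0.00605, edgeR). Every 3 h library lay above both 0 h libraries, but without a scaling factor the LPS change was -0.12. Uqcrh, the hinge protein, was higher at LPS 3 h than at TNF 3 h by 0.41 ± 0.08 (SE, adjusted p = 0.000722, edgeR), at 68.6 and 63.2 against 49.4 and 49.6 CPM, a difference of -0.05 without a scaling factor.

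Complex IV held the nuclear member with the largest rise. At LPS 3 h, 10 of its 13 nuclear members rose and 1 fell, with a median of 0.28. Cox7c (chr13:86044816-86046904, minus strand), a small subunit of the oxidase, had 0.888 and 1.10 CPM at 0 h. It had 3.57, 5.00 and 4.14 CPM after 0.5, 1 and 3 h of IL-1b in crel-/- and 2.77, 3.56 and 2.55 CPM in knock-in cells. After LPS it had 2.72, 2.44 and 4.93 CPM in crel-/- and 2.80, 3.75 and 5.63 CPM in knock-in cells. All of these lay above every TNF library, which held 1.35 to 1.85 CPM. The log2 change was 2.40 ± 0.33 (SE, adjusted p = 3.19e-05, edgeR) at LPS 3 h and 1.72 ± 0.34 (adjusted p = 0.00246, edgeR) at IL-1b 3 h, and neither call was lost under any alternative tried. These levels rest on 11 to 62 counts per library. Of its 50-base windows, 180 occur in Gm10012, which had 0 counts in all libraries.

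Other complex IV members moved less. Cox7b (chrX:106015700-106022450, plus strand), another small subunit, had 39.3 and 35.6 CPM at 0 h, 52.8 and 48.4 CPM at IL-1b 3 h, 59.6 and 51.8 CPM at LPS 3 h and 39.1 and 37.1 CPM at TNF 3 h. Cox5a, a matrix-side subunit, rose under TNF by 0.32 ± 0.08 (SE, adjusted p = 0.0085, edgeR), from 48.8 and 52.6 CPM to 60.3 and 66.2 CPM. Cox7a2l, which takes part in assembling chain supercomplexes, fell under LPS by 0.35 on the log2 scale (with SE 0.10 and adjusted p = 0.00781, edgeR), from 54.0 and 49.9 CPM to 41.1 and 40.3 CPM. In both cases the 3 h libraries lay wholly to 1 side of the 0 h libraries. Among the isoforms at LPS 3 h, Cox4i1 (0.33), Cox6a1 (0.20), Cox6b1 (0.28), Cox7a2 (0.44) and Cox8a (0.23) rose, while the low forms Cox6a2 (-0.80, adjusted p = 0.272, edgeR) and Cox6b2 (-0.28, adjusted p = 0.360) did not pass. Cox6b2 fell under TNF by 0.68 on the log2 scale (with SE 0.24 and adjusted p = 0.0438, edgeR), a call lost in DESeq2 (adjusted p = 0.0641) and limma-voom (adjusted p = 0.0558).

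In complex V, 10 of 16 nuclear members rose and 2 fell at LPS 3 h, with a median of 0.22. Atp5s (chr12:69724962-69744658, plus strand), named for coupling factor B of ATP synthase, fell under every agent. It had 8.96 and 8.07 CPM at 0 h, 4.33 and 4.47 CPM at IL-1b 3 h, 4.79 and 5.13 CPM at LPS 3 h and 4.29 and 4.90 CPM at TNF 3 h. The log2 changes were -0.94 ± 0.18 (SE, adjusted p = 0.0019, edgeR), -0.77 ± 0.19 (adjusted p = 0.00289, edgeR) and -0.89 ± 0.18 (adjusted p = 0.0022, edgeR). All 6 libraries at 3 h lay below both at 0 h. Atp5b, the catalytic beta subunit, rose under TNF by 0.21 ± 0.06 (SE, adjusted p = 0.0109, edgeR), from 615.3 and 599.7 CPM to 682.0 and 722.7 CPM; without a scaling factor the change was 0.06 and did not pass (adjusted p = 0.352, edgeR).

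The 3 subunit c genes differed at LPS 3 h. Atp5g3, which carries most of their RNA, rose by 0.25 ± 0.08 (SE, log2, adjusted p = 0.0164, edgeR). Atp5g2 rose by 1.60 ± 0.54 (adjusted p = 0.0206, edgeR) from 5 and 5 to 9 and 10 counts, and Atp5g1 fell by 1.28 on the log2 scale (with SE 0.46 and adjusted p = 0.0288, edgeR) from 38 and 45 to 11 and 10 counts. Both calls rest on these few counts: Atp5g2 lost its call in DESeq2 (adjusted p = 0.0510) and without a scaling factor (adjusted p = 0.101, edgeR), and Atp5g1 in limma-voom (adjusted p = 0.0550). Atp5mpl, a small subunit of the synthase, was higher at LPS 3 h than at TNF 3 h by 0.45 ± 0.10 (SE, adjusted p = 0.00259, edgeR), a difference of -0.01 without a scaling factor.

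IL-1b and TNF changed few nuclear members. At IL-1b 3 h, 11 of 77 rose and 1 fell, with a median of 0.10, where 16.9% of all genes were called higher and 13.8% lower. The 11 were Cox4i1, Cox5b, Cox7b, Cox7c, Cox8a, Uqcr10, Uqcrq, Ndufa2, Ndufa7, Atp5e and Atp5g2, and Atp5s fell. The Atp5g2 call (1.45, adjusted p = 0.0436, edgeR) was lost in 5 alternatives, with adjusted p from 0.0533 to 0.113, among them DESeq2 and limma-voom. Without a scaling factor, 4 rose and 12 fell. At TNF 3 h, 3 rose (Uqcrq, Cox5a, Atp5b) and 3 fell (Ndufv3, Cox6b2, Atp5s), where 18.7% and 16% of all genes were called; without a scaling factor 0 rose and 15 fell, with Uqcrq at 0.18 and Cox5a at 0.18. LPS 3 h exceeded TNF 3 h in 31 of 77 and was lower in 1, against 24.3% and 24% of all genes; 17 were higher without the knock-in library at TNF 3 h and 18 without the crel-/- library at LPS 3 h. The 31 became 1 higher and 47 lower without a scaling factor.

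Over time, averaged over agents, 3, 5 and 21 nuclear members were called higher at 0.5, 1 and 3 h and 0, 1 and 3 lower, where 2.9%, 7.12% and 25.5% of all genes were called higher and 2.53%, 6.7% and 24.5% lower. The 21 became 12 without the crel-/- library at 0 h and 7 without the knock-in one. Within LPS, from 0.5 to 3 h, 24 rose and 3 fell, with a median of 0.15, against 27% of all genes in each direction; 4 rose without the crel-/- LPS 0.5 h library and 11 without the crel-/- LPS 3 h library, and 0 rose and 61 fell without a scaling factor. Within IL-1b, Ndufs7 (-0.32) and Atp5s (-0.70) were among those that fell, and within TNF Cox5a (0.22) and Atp5b (0.21) rose and Ndufv3 (-0.35) fell.

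Few members differed between the genotypes. The labels name no separate lines or embryos, so genotype cannot be told apart from any other difference between the cells used. Over 10 pairs of libraries matched for agent and time, 0 nuclear members were higher in knock-in cells in edgeR, DESeq2 or limma-voom and 2 were lower, Ndufs5 and Ndufa5, where 7.99% of all genes were called higher and 7.81% lower; 9 had an unadjusted p under 0.05 in either direction. Of the mt- members 0 of 7 passed, 0 at an unadjusted p under 0.05, with a median log2 difference of 0.01. No member passed a test of whether its genotype difference varied with stimulation, between 0.5 and 3 h or between LPS and TNF (0 calls in edgeR, DESeq2 and limma-voom; 2, 5 and 1 nuclear and 0 mt- members at an unadjusted p under 0.05), where 0%, 3.44% and 0.0214% of all genes were called. Ndufa5, a subunit of the peripheral arm of complex I, differed by -0.19 ± 0.05 (SE, adjusted p = 0.0233, edgeR), lower in 10 of 10 pairs.

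Ndufs5 (chr4:123712710-123718202, minus strand), an accessory subunit of the membrane arm, differed by -0.89 ± 0.15 (SE, log2, adjusted p = 0.00151, edgeR) and was lower in 10 of 10 pairs. The adjusted p ran from 5.08e-05 to 0.00519 over the alternatives. It had 24 to 55 counts (median 32.5) in crel-/- and 4 to 32 (median 19) in knock-in libraries, so the ranges overlapped in counts. Its annotated processed copy BC002163 (chr16:42955631-42955949, plus strand), a gene outside the members singled out after its values were seen, went the other way. It had 0 to 1 count in every crel-/- library and 15 to 38 in every knock-in library, with no overlap, a log2 difference of 5.68 ± 0.32 (SE, adjusted p = 3.94e-07, edgeR). The copy is 319 bases long and 99.4% identical to the Ndufs5 transcript, with 2 substitutions, T173C and A197G, counted from 1 at the start of that transcript, the base of Ndufs5 first. Both lie in coding sequence of Ndufs5. They are shown in capitals in these 59-base windows (mm10, 5′ to 3′, Ndufs5 at chr4:123715958-123716016 on the minus strand and BC002163 at chr16:42955694-42955752 on the plus strand), which hold both substitutions.
Ndufs5: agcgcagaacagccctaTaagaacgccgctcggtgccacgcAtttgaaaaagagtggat
BC002163: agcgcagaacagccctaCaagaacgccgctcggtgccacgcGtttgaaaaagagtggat
Summed, the pair had 24 to 55 counts in crel-/- and 26 to 70 in knock-in libraries. The paired log2 difference was -0.99 ± 0.63 (SD, n = 10) for Ndufs5 alone. For the sum it was 0.34 ± 0.38 (SD, n = 10), higher in 9 of 10 pairs. This sum was formed after the values were seen. The pairs are conditions, not replicates of a genotype, so neither SD nor p-value here measures the spread between separate lines of cells. The direction of the genotype difference turns when reads of the copy are added. With 0 to 1 count of the copy in crel-/- libraries, adding it could raise almost only the knock-in side, so this turn is no test. The part of the copy in the Ndufs5 difference was not tested.

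**Figure D5:**
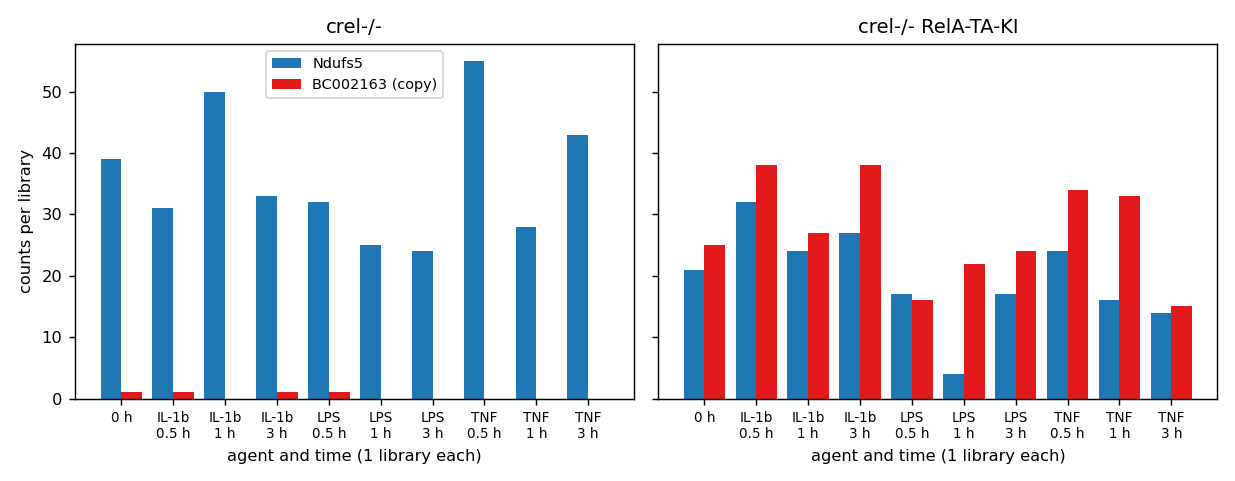
Counts of Ndufs5 and of its copy BC002163, shown as paired bars by agent and time, in crel-/- (left) and knock-in libraries (right), 1 library each. BC002163 has 0 to 1 count in crel-/- and 15 to 38 in knock-in libraries. In CPM, which is not drawn here, Ndufs5 is lower in knock-in cells in 10 of 10 pairs.

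Genes around the chain moved in different ways at LPS 3 h, given here with TMM scaling and to be read against the 29.2% of all genes called higher and 28.3% lower. Of 47 assembly factors, 6 rose and 17 fell (median -0.25), among them Cox18 (2.47), which inserts a complex IV core subunit into the membrane, and Coa4 (-1.39). Of 17 genes for upkeep and transcription of mitochondrial DNA, 2 rose and 7 fell (median -0.32), with Tefm (0.73), a transcription elongation factor, and Mterf2 (-1.86) at the ends. Of 21 genes for mitochondrial RNA processing and decay, 6 rose and 5 fell (median 0.03), with Pnpt1 (3.24), polynucleotide phosphorylase, and Ptcd2 (-1.18) at the ends. Of 74 mitochondrial ribosomal proteins, 10 rose and 22 fell (median -0.04), from Mrpl49 (-1.33) to Mrpl30 (1.00). The median of the 7 mt- members in the same comparison was 1.11.

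Of 17 nuclear regulators, 9 rose and 0 fell in edgeR (median 0.49), led by Perm1 (4.59), although without a scaling factor 3 rose and 7 fell. Of 19 chain genes outside the symbols used, 6 rose and 4 fell (median 0.16), with Gpd2 (1.60), the mitochondrial glycerol phosphate dehydrogenase, and Coq8a (-1.71), needed for ubiquinone synthesis, at the ends. Atpif1, the inhibitor of ATP synthase, rose by 0.29 ± 0.08 (SE, log2, adjusted p = 0.00885, edgeR) and did not pass under IL-1b (0.11) or TNF (-0.04). Of 23 genes of the citric acid cycle and pyruvate entry, 9 rose and 5 fell (median 0.09), with Mpc1 (1.13) and Pdk4 (-1.31) at the ends, but 0 rose and 21 fell without a scaling factor. Of 21 glycolysis genes, 9 rose and 4 fell (median 0.19), with Hk2 (4.27) and Slc2a3 (-1.04) at the ends, but 4 rose and 13 fell without a scaling factor. Of 78 cytosolic ribosomal proteins, 44 rose and 0 fell (median 0.30), led by Rps27a (1.51), but 1 rose and 45 fell without a scaling factor. Of 7 mitochondrial ribosomal and nuclear noncoding RNAs, 6 rose (median 1.18), led by Malat1 (2.22). None of the 6 pseudogene copies of mt- genes listed reached the level tested.

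Among cell type markers at LPS 3 h, where 29.2% of all genes were called higher and 28.3% lower, 9 of 14 fibroblast markers rose and 0 fell (led by Fbn1, 1.96; 2 rose and 7 fell without a scaling factor), and 4 of 15 macrophage markers rose and 8 fell (Cd14, 2.67, and Cx3cr1, -3.72). Of 11 neural and Schwann markers 6 fell (Sox10, -3.02), of 4 muscle markers 2 fell (Tnni2, -1.53) and of 3 epithelial markers 1 fell (Krt14, -1.37). Of 3 endothelial markers 1 rose (Kdr, 2.62), as did 1 of 2 fat markers (Fabp4, 0.62).

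Across the 20 libraries the mt- members moved as 1 block and the nuclear members did not. Pearson's r of log2 CPM, given as a description over libraries that share scaling, had a median of 0.97 over 21 mt- pairs (0.85 to 1.00). It was 0.32 over 2926 nuclear pairs (-0.78 to 0.89) and 0.37 over 539 pairs of a nuclear and an mt- member. Outside the members, mt-Rnr2 (0.95) and mt-Rnr1 (0.94), the mitochondrial ribosomal RNAs, were most like the mt- mean, followed by Lama5, Col6a3, Gm43039, Rpl9, Hspg2, Itih2, Ltbp2 and Gm37893 (0.90 to 0.93). Among those most like the nuclear mean were Gabarap (0.94), Rps3 (0.93), Rpl32, Bsg, Rplp1, Rps14, Selenow, Copa and Eif3h.

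Promoters of nuclear members were searched for the palindrome bound by NRF1, a known regulator of chain genes, and for other motifs. RefSeq promoters (GRCm38.p6, 250 bases before to 50 after the start) were matched for 64 of 77 members, giving 69 promoters, and both strands were searched. The NRF1 palindrome was in 5 of these (7.25%) and in 0.971% of all 32851 promoters. With its sixth base left free, a form that includes the first, it was in 18 (26.1%) against 4.60%. The YY1 motif was in 7.25% against 0.852%, and CCGGAAGT, of the ETS family, in 7.25% against 3.89%. Of NF-kB patterns, the strict form was in 0% against 0.155%, a form with a free middle in 1.45% against 1.63% and the loosest in 56.5% against 50.8%. A match is a description of letters, not a site in use. These 3 windows, written 5′ to 3′ on the gene's strand with the match in capitals, show the palindrome in Cox6a1 and Ndufa11 and the form with a free base in Ndufs5, each upstream of the RefSeq start: Cox6a1 at chr5:115349086-115349145 (minus), Ndufa11 at chr17:56717677-56717736 (plus) and Ndufs5 at chr4:123718250-123718309 (minus).
Cox6a1: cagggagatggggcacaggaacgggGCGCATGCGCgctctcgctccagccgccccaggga
Ndufa11: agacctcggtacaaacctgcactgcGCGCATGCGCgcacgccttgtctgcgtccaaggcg
Ndufs5: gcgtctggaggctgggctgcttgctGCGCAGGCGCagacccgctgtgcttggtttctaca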

How the data were processed

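Gene counts of 20 polyA RNA libraries were analysed. The deposited values are whole-number counts per gene, not normalized, which the authors made with cutadapt 1.12, STAR and featureCounts 1.5.1 on mm10, per the submitters' processing notes, which also name DESeq2; no annotation release, strand setting or rule for multi-matching reads is given in the sources used here. Samples were grouped by the labels' genotype, agent and time. Genes reaching 1 CPM in 2 or more libraries were tested (14023, holding 99.9% of counts). Counts were fitted with edgeR 4.0.16 (quasi-likelihood, TMM, R 4.3.3) over all 20 libraries with genotype and condition as terms, which leaves 9 residual degrees of freedom; the standard error was taken as the log2 change over the root of F. The common biological coefficient of variation was 10.6%. On simulated counts of 14023 genes, 80% of log2 changes of 1 and 92% of those of 2 were recovered at LPS 3 h, and 100% of both in the genotype comparison. The simulation changed 100 genes per size, gave every gene the same spread and held no other change. Its shares therefore do not give the share recovered in these data or among the members. Alternatives were DESeq2 1.42.0, limma-voom (limma 3.58.1), no scaling factor, mt- genes left out of totals, no filter and libraries left out. Members and gene lists were chosen with earlier results of these data known. Named genes are all mt- members, the called member of each complex with the largest rise and fall in each main comparison, isoforms, the Sdh genes, Atpif1, the highest and lowest members, the largest called change of each list in each direction at LPS 3 h and the 10 genes most like each mean; any others named are examples chosen after their values were seen. Some genes that these rules name are not reported here.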

Additional observations from a re-analysis of the deposited data

Results flagged for a closer look

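The mt- members, summed, moved in opposite directions in the 2 genotypes at 1 and 3 h of TNF. Their summed level changed from 0 h to 1 h by 0.58 on the log2 scale in crel-/- and by -0.44 in knock-in cells, a difference of -1.02. From 0 h to 3 h it changed by 0.58 and -0.27, a difference of -0.84. Each value is 1 library against 1 library, and the difference was not tested. At TNF 0.5 h the changes were 0.11 and 0.10. Under IL-1b and LPS the knock-in change was also the smaller at every time, with differences from -0.24 (LPS 0.5 h) to -0.45 (LPS 3 h). All changes of a genotype share its 1 library at 0 h, where the mt- share was 0.745% in crel-/- and 0.959% in knock-in cells.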

How the results depend on the processing

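Without the TMM factor, the nuclear members called higher and lower became 1 and 57 at LPS 3 h, 4 and 12 at IL-1b 3 h, 0 and 15 at TNF 3 h, 1 and 47 for LPS minus TNF, and 1 and 40 for the mean at 3 h. At 0.5 h 1 was higher, and at 1 h 1 was higher and 6 lower. From 0.5 to 3 h the counts were 0 and 61 under LPS, 12 lower under IL-1b, and 0 and 7 under TNF, and in the early comparison at 0.5 h 3 were higher. The mt- members called higher became 0 at 1 h, 2 in the mean at 3 h, 4 at LPS 3 h, 3 for LPS minus TNF and 2 in the early comparison. The direction turned for Sdhc (-0.46) and Uqcrq (-0.12) at LPS 3 h and for Sdhc (-0.24), Uqcrh (-0.048) and Atp5mpl (-0.013) in LPS minus TNF. With DESeq2, mt- calls were 5 at 0.5 h, 6 at 1 h and 5 for IL-1b minus TNF, and nuclear calls were 3 higher and 0 lower at 1 h, 2 higher for IL-1b minus TNF, 3 higher in the early comparison and 1 higher late under TNF. With limma-voom, mt- calls were 3, 6 and 4 for the same comparisons, and 2 nuclear members were lower at IL-1b 3 h and late under TNF. With no filter beyond 1 count, nuclear calls were 3 higher and 0 lower at 1 h, 11 higher in the mean at 3 h, 2 higher for IL-1b minus TNF, 3 higher early, 13 higher late under LPS and 1 higher late under TNF, and mt- calls 0 at 1 h, 2 at IL-1b 3 h and 0 early. Without both LPS 3 h libraries, mt- calls were 0 at 1 h and 1 early, 2 nuclear members were lower at IL-1b 3 h and 1 higher late under TNF. In 2 alternatives added after the data were seen, the mean of IL-1b and TNF gave 10 nuclear and 0 mt- members higher, and the 0 h and TNF libraries alone gave 5 nuclear members higher at TNF 3 h and 1 late. As a median of gene-wise log2 CPM, the mt- difference at LPS 3 h was 1.05 in place of 0.54 for the share.

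Leaving out 1 library at a time gave 0 to 3 nuclear members higher at 0.5 h, 1 to 5 higher and 0 to 1 lower at 1 h, and 7 to 24 higher and 1 to 4 lower at 3 h. It gave 4 to 14 higher at IL-1b 3 h, 23 to 38 higher and 2 to 3 lower at LPS 3 h, 1 to 3 in each direction at TNF 3 h, 17 to 31 higher and 0 to 1 lower for LPS minus TNF, and 1 to 4 higher and 0 to 1 lower for IL-1b minus TNF. Early it gave 1 to 4 higher, late under LPS 4 to 20 higher and 1 to 3 lower, under IL-1b 0 to 2 lower, under TNF 0 to 1 higher and 1 to 2 lower, and for the genotype 0 to 1 higher. The mt- calls ranged from 0 to 7 at 1 h and 3 h, 0 to 6 at IL-1b 3 h, 0 to 3 for IL-1b minus TNF and 0 to 1 early. A group left with 1 library is assumed to vary like the others. Of 46 named member results, 15 kept their call in every alternative and 31 did not in at least 1. The labels carry no replicate numbers, so no further block was fitted; the genotype comparison already matches libraries by agent and time in 10 pairs.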
